A study of Mus musculus with 1920 samples.

Results

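The genes described here are 37 type I interferon response genes, read in single microglia of the mouse brain and spinal cord. They were chosen by name, as genes that cells switch on after type I interferon, but with earlier results of these data known. All 37 were found among the 48709 gene entries of the count table through their mouse gene identifiers. Microglia are the macrophages that live in brain and spinal cord. Here they came from 16-week-old CD1 mice, were sorted singly into wells, and were sequenced by Smart-seq2, which copies whole transcripts and carries no molecular identifiers. There were 10 groups, and the labels number 4 replicates in each, while the series text gives 3 to 4 mice per condition; each numbered replicate is called a mouse here. Untreated mice gave 6 regions: spinal cord, corpus callosum, cortex, facial nucleus, hippocampus and cerebellum. A cut of the facial nerve, called axotomy, gave cells of the facial nucleus at day 3 and day 14; for these wells one label names the facial nerve and another the facial nucleus. Cuprizone, a copper chelator that kills oligodendrocytes when fed, gave cells of the corpus callosum at a demyelination stage and at a remyelination stage. The 6 untreated regions came from the same mice according to the submitters, but whether equal replicate numbers in different regions mark the same mouse is not stated.

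Type I interferons are secreted proteins that bind a receptor of the chains IFNAR1 and IFNAR2 and, through the kinases JAK1 and TYK2, activate a complex that includes STAT2 and IRF9. That complex binds a short element in the promoters of responding genes, and their products sense foreign or misplaced nucleic acid, block viral replication and, as with USP18, dampen the receptor again. In the central nervous system microglia are among the cells that carry out this programme, and a small interferon-responsive microglial state is known from development, ageing and injury.

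The promoters of 5 members are printed because they carry the element in different arrangements or lack it in the bases searched. Another reason is that the results on Bst2 and Ifi202b are given in detail further on. RefSeq promoter windows on GRCm38.p6, each 300 bases long with 250 before and 50 after the start of the gene, existed for 28 of the 37 members. They were searched on both strands for the core of the interferon-stimulated response element, taken as GAAA, any 2 bases and GAAA again, which reads TTTC, any 2 bases and TTTC on the other strand. The core stood in 15 of the 28 members (53.6%) and in 3.99% of all 27025 genes with a window. Counted by window, since a gene can have several, it stood in 16 of the members' 34 windows and in 3.44% of all 32851. At least 2 matches were found in 7 members and in 0.225% of all windows. The 250 bases before each start follow, with matches in capitals, 5′ to 3′ in the direction of the gene.
Isg15 (chr4:156200819-156201068, minus strand): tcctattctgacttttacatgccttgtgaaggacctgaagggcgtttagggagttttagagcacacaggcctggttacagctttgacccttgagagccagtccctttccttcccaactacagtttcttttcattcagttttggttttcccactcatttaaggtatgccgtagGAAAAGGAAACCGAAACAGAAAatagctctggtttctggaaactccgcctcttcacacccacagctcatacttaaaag
Ifit3 (chr19:34583279-34583528, plus strand): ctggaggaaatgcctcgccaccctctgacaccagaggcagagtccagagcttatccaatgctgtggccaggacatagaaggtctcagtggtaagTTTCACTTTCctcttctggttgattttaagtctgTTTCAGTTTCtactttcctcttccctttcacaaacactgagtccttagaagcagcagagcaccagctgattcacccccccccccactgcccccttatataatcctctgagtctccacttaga
Ifit3b (chr19:34607707-34607956, plus strand): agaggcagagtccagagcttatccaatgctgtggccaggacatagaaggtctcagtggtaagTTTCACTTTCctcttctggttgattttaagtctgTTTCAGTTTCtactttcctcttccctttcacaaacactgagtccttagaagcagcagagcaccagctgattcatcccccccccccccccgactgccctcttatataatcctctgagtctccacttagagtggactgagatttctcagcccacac
Bst2 (chr8:71537473-71537722, minus strand): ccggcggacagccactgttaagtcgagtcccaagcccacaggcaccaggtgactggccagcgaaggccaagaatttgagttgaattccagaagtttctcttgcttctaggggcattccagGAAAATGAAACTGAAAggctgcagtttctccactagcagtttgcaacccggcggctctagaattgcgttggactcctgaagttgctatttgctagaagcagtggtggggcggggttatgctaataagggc
Ifi202b (chr1:173982845-173983094, minus strand): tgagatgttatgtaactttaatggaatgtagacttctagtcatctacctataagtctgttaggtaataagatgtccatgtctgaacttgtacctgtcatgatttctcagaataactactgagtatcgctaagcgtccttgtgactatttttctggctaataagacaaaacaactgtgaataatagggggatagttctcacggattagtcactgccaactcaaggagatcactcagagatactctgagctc

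The 3 matches of Isg15, a ubiquitin-like protein attached to other proteins, overlap in a single run and begin 78, 72 and 66 bases before the start. Bst2, which encodes tetherin, a membrane protein that holds budding virus particles at the cell surface, has 2 overlapping matches that begin 130 and 124 bases before the start. In Ifit3 and Ifit3b, neighbouring genes for proteins that bind viral RNA and its partners, the 2 matches lie on the other strand, 156 and 122 bases before the start of Ifit3 and 188 and 154 before that of Ifit3b. The window of Ifitm3, an inhibitor of viral entry, holds matches that begin 2 and 19 bases after the start. Trim30a, a ubiquitin ligase family member, has a match 36 bases before the start in the window at its annotated start. Another Trim30a window, within the gene, holds a match that begins 2 bases after the start of that window's transcript. No match was found in the windows of Ifi202b, Irf7, Irf9, Ifit2, Oasl2 or Xaf1, among the 13 members without one. The Ifi202b window lies upstream of the annotated gene start at 173982744, so the bases next to that start were not searched. Both Irf9 windows, which begin at 55603735 and 55604329, lie inside the gene, whose annotated start is 55603571. The bases before and at that start were therefore not searched. For Bst2, Ifit3, Ifit3b and Ifi202b the bases just after the window's start were not found in the early part of a GENCODE transcript. A match describes letters only, and its use in these cells was not measured.

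The 37 genes lie on 14 chromosomes, and 19 of them lie in 7 clusters of 2 to 4 members (GRCm38). Ifi207, Ifi204, Ifi211 and Ifi202b, which encode proteins that bind DNA, lie within chr1:173723430-173982744. Ifit2, Ifit3, Ifit3b and Ifit1 lie within chr19:34550694-34650009. Some of these neighbours resemble each other, so reads can be split between them or lost in counting. Of the 50-base windows of a member's transcripts, 72.8% also occur in another gene for Ifi211 (mostly Ifi205), 57.6% for Oas1a (mostly Oas1g), 51.2% for Ifit3 and 45.0% for Ifit3b (each mostly the other), and 20.0% for Ifi204. Values of these 5 genes are uncertain for that reason.

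Of 1900 wells labelled as cells, 1644 passed the filters, 29 to 47 per mouse, and their counts were summed into 40 sums of 5298853 to 19964472 counts, 1 per mouse and group. All 12 microglial markers, P2ry12 and Tmem119 among them, were read in every group, with a summed level of 36279.0 to 62545.5 CPM (counts per 1000000 gene counts of the sum, here without further scaling) in the untreated and axotomy sums and 20665.1 to 27722.9 in the cuprizone sums. The remyelination group kept 67.9% of its wells, the smallest share, and had a median of 1517 detected genes per cell against medians of 2137 to 2958.5 in the other groups. The 20 negative wells had a median of 524.5 counts, and 13 of them held no read of any member. Each of the 5 plates carried 2 groups, so an injured group and its untreated region always lie on different plates and plate and treatment cannot be told apart between them. Day 3 and day 14 share a plate, as do the 2 cuprizone stages, cortex and hippocampus, cerebellum and facial nucleus, and corpus callosum and spinal cord.

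Levels are given as CPM of each mouse's sum, with library sizes scaled over the 40 sums, and errors as SD over 4 mice. Most members were read at low levels. The 10 with the highest mean over the 40 sums were Trim30a (107.5 CPM), Irf9 (86.2), Parp14 (58.1), Ifi35 (56.7), Bst2 (52.0), Ifi27l2a (45.9), Ifi202b (35.8), Ddx58 (35.7), Ifitm3 (30.2) and Stat2 (30.0). Divided by transcript length, a scale on which genes can be compared, the order was headed by Ifi27l2a at 99.2 CPM per kilobase, Bst2 at 57.6 and Ifitm3 at 44.6, all short transcripts of membrane proteins. A filter on low counts came before each test: all members but Ifit3b passed it in the axotomy groups, all but Ifit3b and Ifi211 in the regions, and 31 in the cuprizone groups, where Ifit1, Ifit3b, Irf7, Oas2, Rsad2 and Ifi44 did not. A member could pass through high values in 1 group alone, so counts over the members tested are descriptions. Day 3 after axotomy had the highest group mean for 12 members, day 14 for 11, remyelination for 6 and cerebellum for 4.

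The summed level of the 37 members was lowest in cortex, at 433 ± 119 CPM, corpus callosum, at 510 ± 60.1, and hippocampus, at 513 ± 132. It was 2317, 1531, 1901 and 1161 CPM in the 4 mice at day 3 after axotomy, against 1185, 611, 729 and 380 in untreated facial nucleus. Only the lowest day 3 mouse lay below the highest facial nucleus mouse. Day 14 had 1057, 614, 3740 and 574 CPM, and remyelination 1723, 501, 1998 and 485. In both of these groups the mice spread widely: mouse 3 was the highest of the 4 for 33 of 37 members at day 14 and for 23 of the 35 members with reads in remyelination. At demyelination the sum was 559 ± 94.0 CPM, within the range of the untreated regions. That placement depends on the scaling: without it the demyelination mean was 395 CPM, below the lowest untreated region, cortex, at 441. The remyelination mean depends on it too. It was 1177 ± 798 CPM with scaling, above the mean of every untreated region. Without scaling it was 801, below facial nucleus at 842 and cerebellum at 836.

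**Figure D1:**
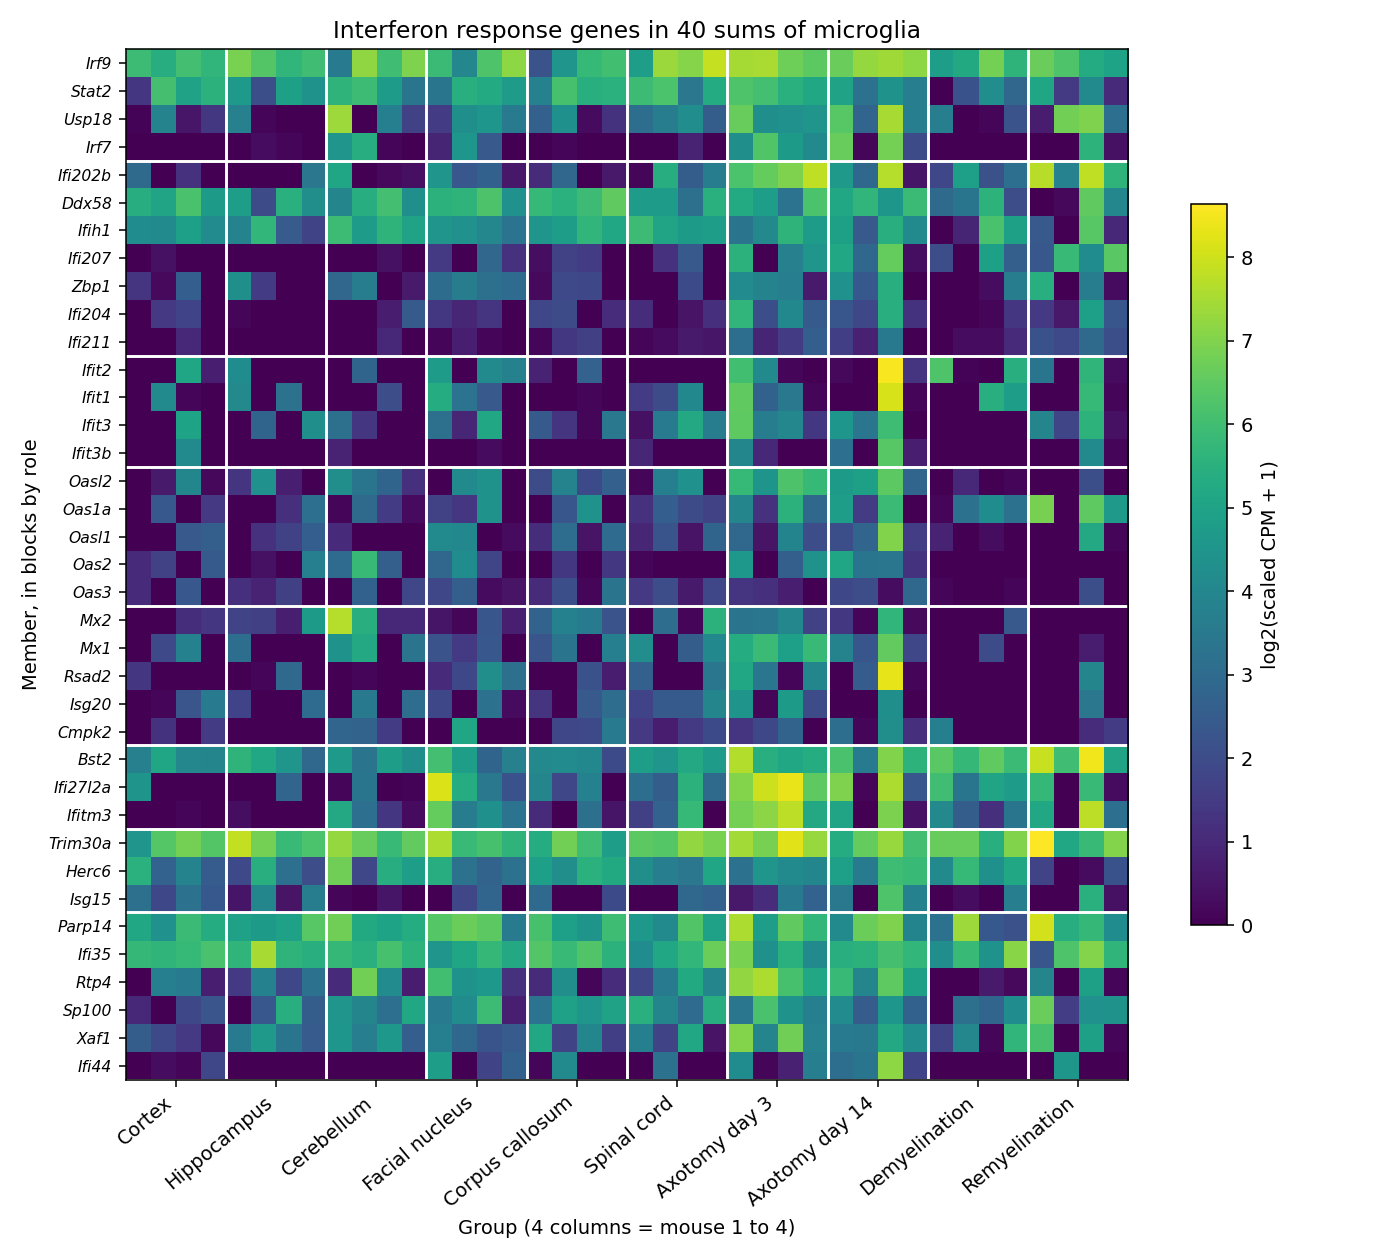
Level of each of the 37 members in each of the 40 sums, as log2(CPM + 1), with 4 mice per group side by side and members grouped by role. The columns of axotomy day 3, of mouse 3 at day 14 and of remyelination mice 1 and 3 are bright over many members, with summed levels of 1161 to 3740 CPM; the column of facial nucleus mouse 1 lies at 1185.

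After axotomy most members had higher group means at day 3 than in untreated facial nucleus, but none passed the test over all genes. Those higher included Ifi202b, which encodes a DNA-binding protein, the antiviral GTPase Mx1 and the apoptosis-related factor Xaf1. Mx1 was at 39.6, 57.8, 28.6 and 56.8 CPM at day 3 and at 3.61, 1.75, 4.06 and 0 in facial nucleus. Ifi202b was at 72.3, 95.4, 124 and 221 CPM at day 3 and at 21.8, 4.14, 5.37 and 0.478 in facial nucleus. For both genes every day 3 mouse was above every untreated mouse. The log2 fold change was 4.28 ± 1.28 (SE) for Mx1, with an adjusted p of 0.398, and 4.00 ± 1.26 for Ifi202b, with an adjusted p of 0.414, from edgeR's quasi-likelihood test with Benjamini-Hochberg adjustment. Xaf1 was at 130, 14.4, 108 and 13.2 CPM at day 3, high in mice 1 and 3 only, and at 12.3, 6.35, 3.75 and 4.59 in facial nucleus. Its log2 fold change was 3.31 ± 0.90 (adjusted p = 0.313).

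By edgeR 0 of the 36 members tested were called at day 3, beside 28 of 19319 genes (0.145%), and 5 members had an unadjusted p under 0.05, beside 8.33% of all genes. DESeq2 called 3 members, Ifi202b, Mx1 and Xaf1, beside 1.83% of genes. The members' median log2 fold change was 1.06 against 0.04 over all genes, and 30 of 36 were positive (83.3%) against 51.5% of all genes. In 6 of the 36 every day 3 mouse was above every facial nucleus mouse (Ifi202b, Ifi204, Ifi211, Mx1, Oasl2 and Xaf1), a pattern that 3.1% of all genes showed, and in none the reverse, which 1.99% showed. Summed levels of 12 cell division markers were 836.2 to 1754.9 unscaled CPM at day 3 and 13.3 to 295.3 in facial nucleus, and their part in these values was not tested.

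By role, the positive values at day 3 were spread over the family. All 4 signalling members (Irf7, Irf9, Stat2 and the inhibitor Usp18) had a positive value, with a median of 1.27. Irf7, the factor that amplifies interferon production, was at 18.8, 76.6, 25.3 and 16.6 CPM at day 3 and at 0.878, 22.4, 4.36 and 0 in facial nucleus, so the groups overlapped in 1 mouse of the untreated group. Of the 7 members grouped as nucleic acid sensors and DNA-binding proteins 6 were positive (median 3.12). Of 5 OAS family genes, several of which encode enzymes that make the activator of RNase L, 3 were positive (median 0.91). Of 3 IFIT genes tested all 3 were positive (median 1.04). The 3 membrane proteins Ifitm3, Bst2 and Ifi27l2a were positive, with a median of 1.52. Ifitm3 was at 113, 139, 219 and 36.3 CPM at day 3 against 96.5, 11.5, 19.1 and 8.79 in facial nucleus. Ifi27l2a was at 131, 252, 328 and 89.5 CPM against 293, 40.1, 10.0 and 3.54. In both the first facial nucleus mouse reached the range of day 3; for Ifi27l2a 80.0% of all facial nucleus reads came from 1 cell of that mouse. Ifi204 (log2 fold change 4.17 ± 1.63) and the receptor transporter gene Rtp4 (2.03 ± 0.83) completed the 5 members with the smallest p, at adjusted p of 0.464 and 0.482.

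**Figure D2:**
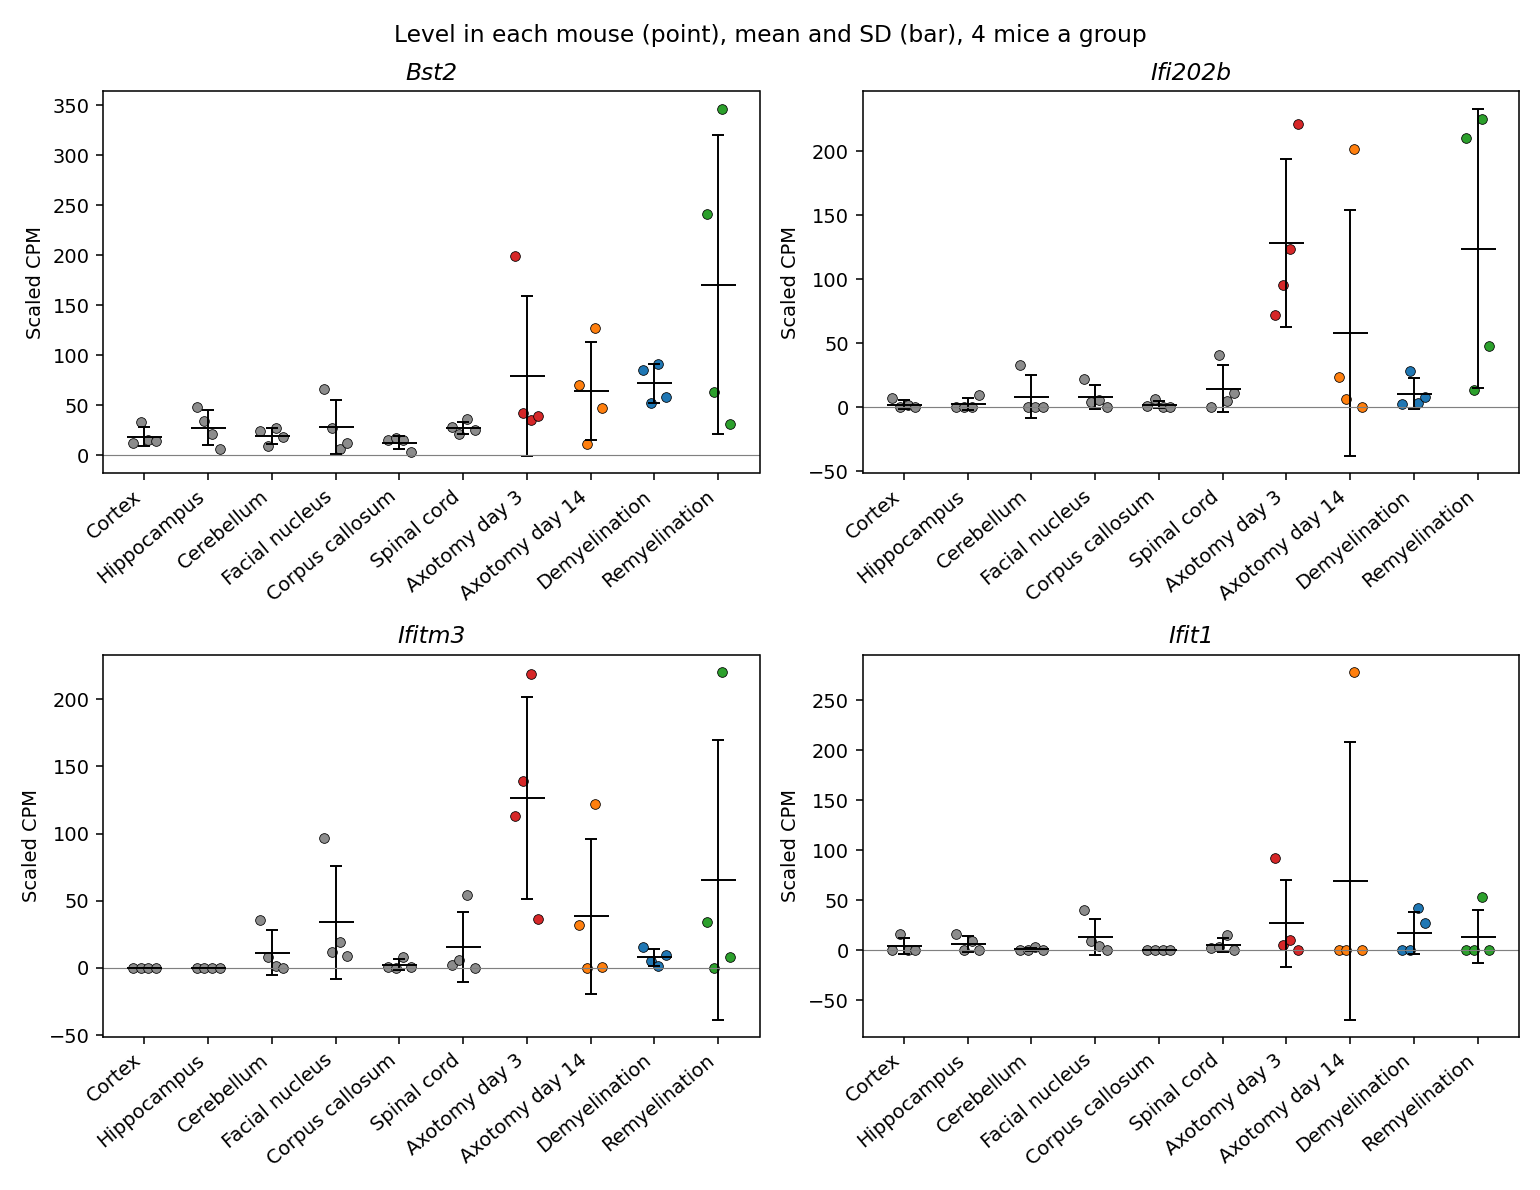
Level in CPM of Bst2, Ifi202b, Ifitm3 and Ifit1 in each of the 4 mice of the 10 groups, with mean and SD as bars. The Ifi202b points of axotomy day 3 (72.3 to 221 CPM) lie above all 4 facial nucleus points, Ifit1 at day 14 is high in 1 mouse (278 CPM), and the Bst2 points of remyelination (31.6 to 347 CPM) lie above all 4 corpus callosum points.

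At day 14 the levels of the members differed widely between the 4 mice. The antiviral enzyme Rsad2, also called viperin, was at 0, 4.68, 321 and 0.0817 CPM, Ifit1 at 0, 0, 278 and 0.0817, and Ifit2 at 0.148, 0, 375 and 1.47. Each of these genes was high in mouse 3 alone, and few cells held the reads: 9 of 171 cells for Rsad2, with 79.2% of 2924 reads in 1 cell, 9 cells for Ifit1, with 47.0% in 1 cell, and 11 cells for Ifit2, with 52.4% in 1 cell. Usp18 was at 83.1, 6.0, 182 and 12.1 CPM, high in mice 1 and 3.

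Against untreated facial nucleus, edgeR called 0 of 36 members at day 14, as it called 0 of 19319 genes (0.0%). There were 5 members with an unadjusted p under 0.05, beside 5.64% of genes, and DESeq2 called 0 members, beside 0.953%. The smallest p belonged to Mx1 (log2 fold change 3.58 ± 1.24, adjusted p = 0.629), then Usp18 (2.41 ± 0.99), Ifi202b, Ifi204 and Ifi207, with adjusted p up to 0.770. The median was 1.24 over the members and 0.11 over all genes, with 29 of 36 members positive. No member separated the 4 mice of day 14 upward from those of facial nucleus, a pattern 2.29% of genes showed, and none downward, beside 1.62%. Both axotomy comparisons share the 4 facial nucleus mice.

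Between the 2 axotomy days, which share a plate, edgeR called 0 of 36 members, beside 5 of 19319 genes (0.0259%). An unadjusted p under 0.05 was found for 3 members and 6.6% of genes, and DESeq2 called 0 members, beside 1.23% of genes. Stat2, a subunit of the complex that carries the interferon signal, was at 76.2, 64.8, 43.6 and 35.6 CPM at day 3 and at 30.7, 8.51, 20.5 and 12.1 at day 14, and it was the 1 member with every day 14 mouse below every day 3 mouse, as in 2.32% of genes; the reverse held for none, beside 2.28%. Its log2 fold change was -1.63 ± 0.69 (adjusted p = 0.636). Xaf1 (-1.83 ± 0.85) and Trim30a (-1.08 ± 0.51) had the next smallest p, followed by Herc6 and Rtp4. The members' median was 0.03, against 0.10 over all genes, and 19 of 36 were positive.

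**Figure D3:**
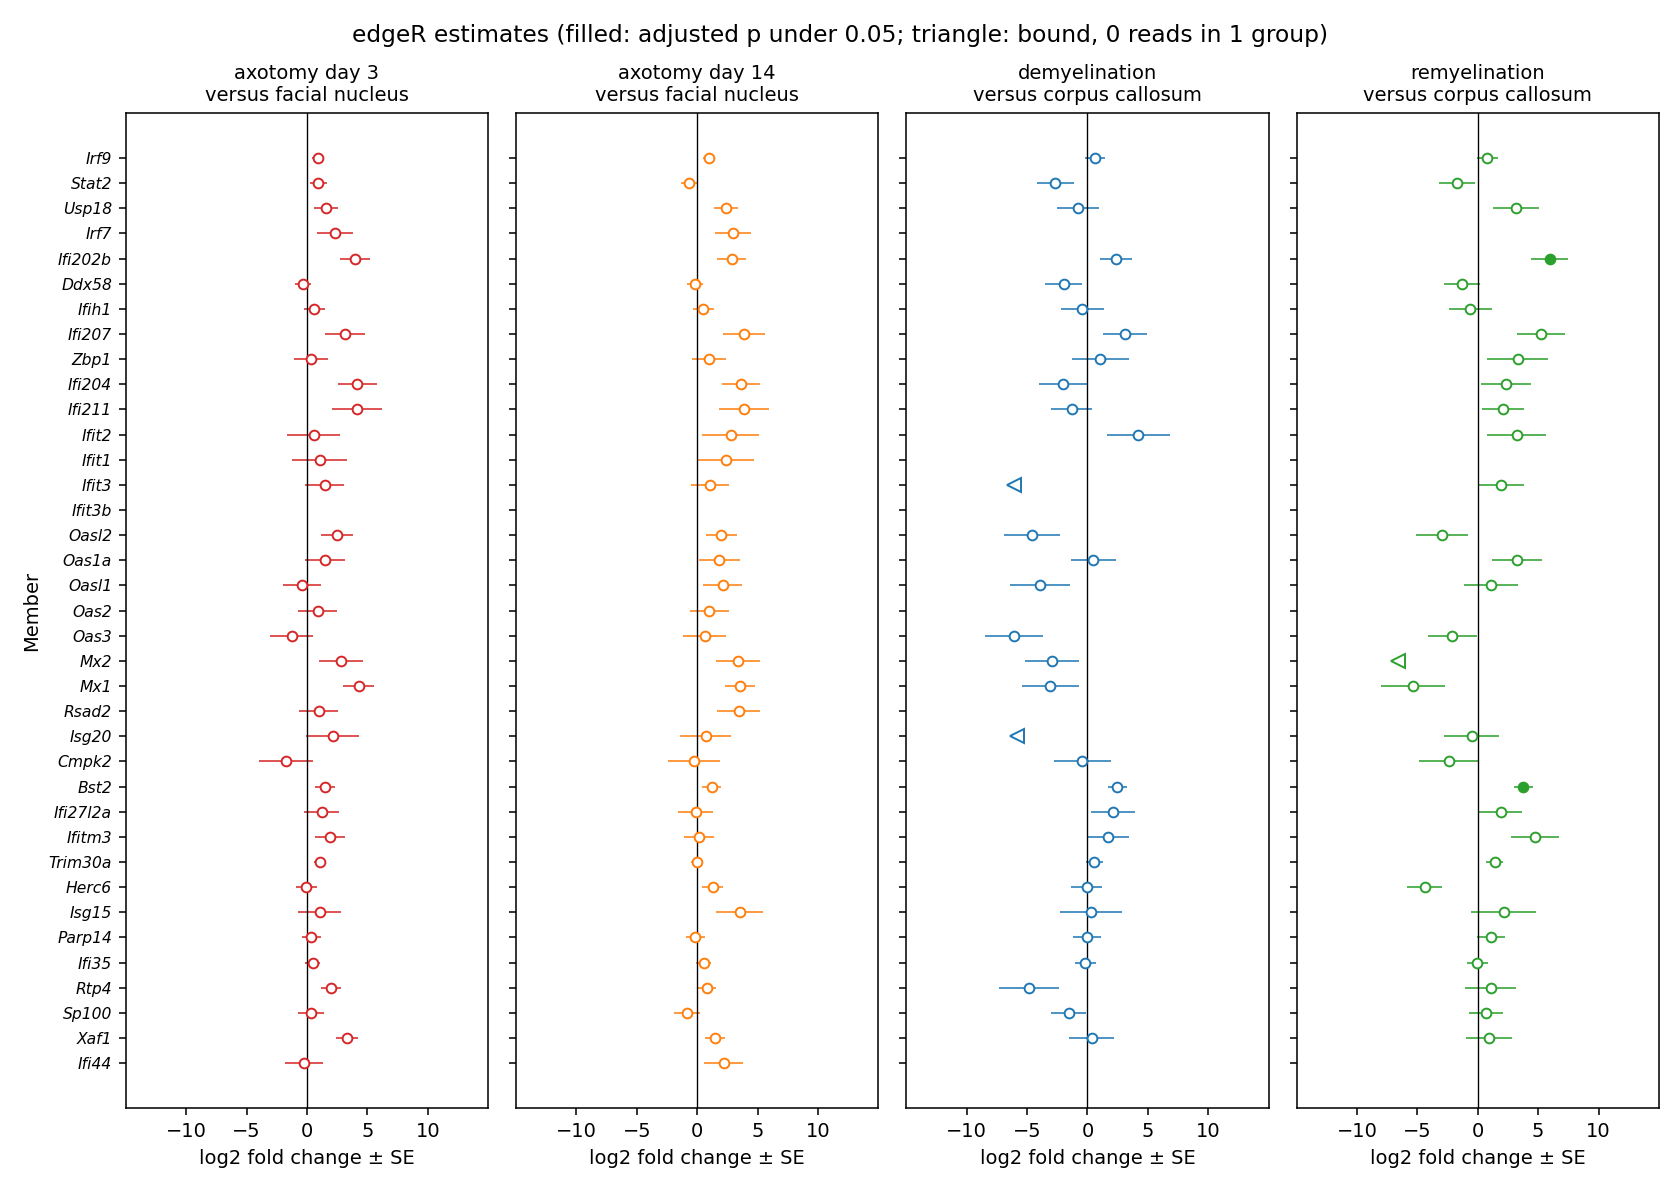
Log2 fold change of each member tested, by role, in the comparisons of the injured groups with their untreated region. Open triangles mark bounds for members at 0 reads in 1 of the 2 groups, bars are SE, and filled points mark the members called over all genes by edgeR: Bst2 (3.76) and Ifi202b (5.97) in remyelination against corpus callosum, and none in the other comparisons.

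To compare cells at one depth, each cell was thinned to 20000 counts, and a cell was counted when at least 5 of the 37 members had a read. Of all 1644 cells 130 (7.91%) were such cells. The share was 23.3%, 22.2%, 32.6% and 24.3% in the 4 mice at day 3 and 15.6%, 9.09%, 5.41% and 2.86% in facial nucleus, with no overlap. Day 14 had 20.0%, 4.26%, 34.1% and 5.0%, again high in mice 1 and 3. That split depended on the cutoff. With at least 3 members read, mouse 2 was the highest at day 14, at 55.3%. Every day 14 mouse then lay above every facial nucleus mouse, the highest of which was at 36.4%. With at least 8 members read, day 14 mouse 3 was at 22.7%, mouse 1 at 2.5% and mice 2 and 4 at 0. The mean share with at least 5 members was 0.641 ± 1.28% in hippocampus, 2.29 ± 3.29% in cortex and 3.31 ± 1.26% in cerebellum. It was 5.76 ± 3.03% in corpus callosum, 4.55 ± 2.88% at demyelination and 4.23 ± 6.60% at remyelination. Spinal cord lay at 7.24 ± 6.98%, with 17.1% in mouse 3. Without thinning the share was 43.6% at day 3 and 14.7% in facial nucleus. The median mitochondrial share of counts was 3.09% at day 3 and 1.06% in facial nucleus, and at day 3 it was 3.44% in cells with at least 5 members and 2.89% in the others; its part in these shares was not tested. These shares are a description of a sum over chosen genes and were not tested.

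**Figure D4:**
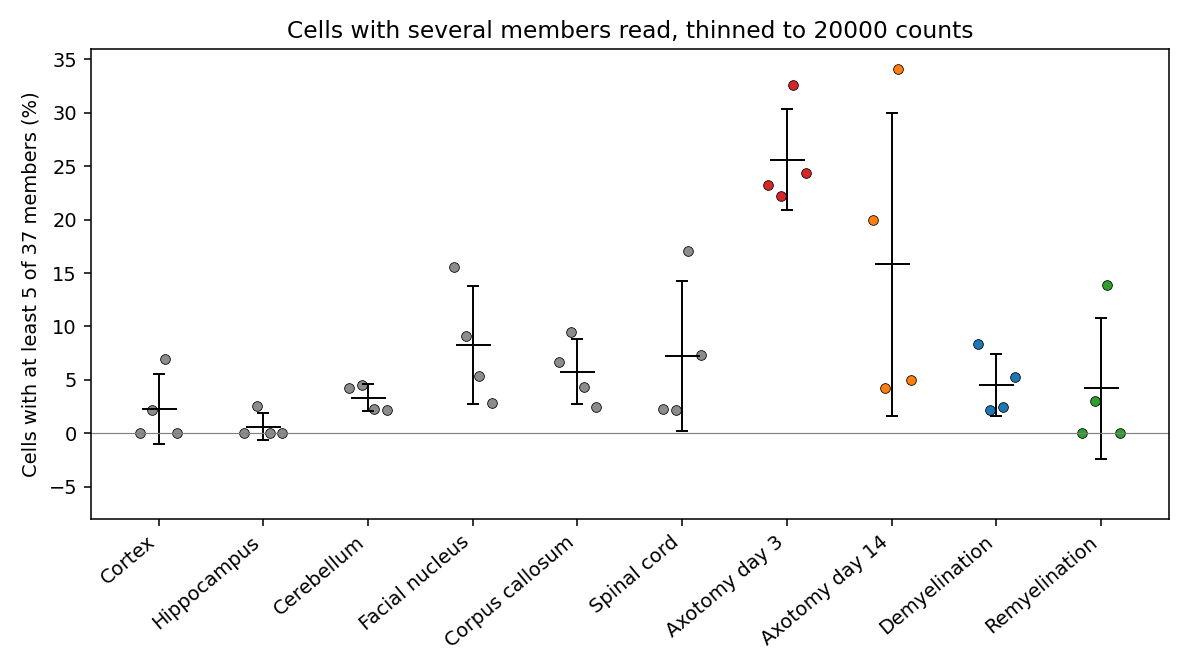
Percent of cells with at least 5 of the 37 members read after thinning to 20000 counts, 1 point per mouse and a bar for the mean of 4 mice. Axotomy day 3 (22.2 to 32.6%) is the group whose mice all lie above 20%. At this cutoff day 14 splits into 2 mice at 20.0% and 34.1% and 2 at 4.26% and 5.0%.

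A small number of cells read many members at once. At least 10 members were read in 30 cells, 13 of them at day 3, 9 at day 14, 3 in facial nucleus, 2 at remyelination and at most 1 in each other group. At least 20 members were read in 5 cells. The highest, in mouse 3 at day 14, read 34 of the 37 members, and the members took 4.63% of its counts. The next were a cell of mouse 1 at day 3 with 28 members and a cell of mouse 3 at remyelination with 27. That day 14 cell held 37.3% of its mouse's member reads, and without it the mouse's summed member level, on unscaled CPM, went from 4322 to 2806. Leaving out the highest cell of every mouse changed the group mean from 1754 to 1274 CPM at day 14 and from 1726 to 1408 at day 3, against 644 in facial nucleus treated the same way.

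At day 3 the 43 cells with at least 5 members had a median of 3471 detected genes and 208104 counts, against 2667 genes and 192771 counts in the other 125 cells. At least 3 division markers were read in 10 of the 43 (23.3%) and in 13 of the 125 (10.4%). Without cells that read at least 3 division markers the share with at least 5 members was 23.0 ± 4.98% at day 3 and 8.37 ± 5.52% in facial nucleus. Single members were spread unevenly: after thinning, and as a mean over mice, Ifi27l2a had a read in 33.1% of day 3 cells and 7.8% of facial nucleus cells, Trim30a in 30.4% and 16.1%, Ifitm3 in 17.8% and 6.1%, and Irf7 in 7.6% and 2.4%. Across the 168 day 3 cells, centred per mouse, Spearman's rho was 0.46 between Ifi27l2a and Ifi202b, 0.45 between Ifitm3 and Ifi202b, and 0.42 between Irf9 and Ifitm3. These were the 3 highest of the 36 pairs of the 9 members read in at least 20% of day 3 cells. Over those 36 pairs the median was 0.192, with a range of -0.016 to 0.46. Other members met that level in other groups. The median was -0.003 over the pairs of 4 members in facial nucleus and 0.057 over those of 6 members at day 14. Cells differ in depth, and its part in these values was not tested.

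**Figure D5:**
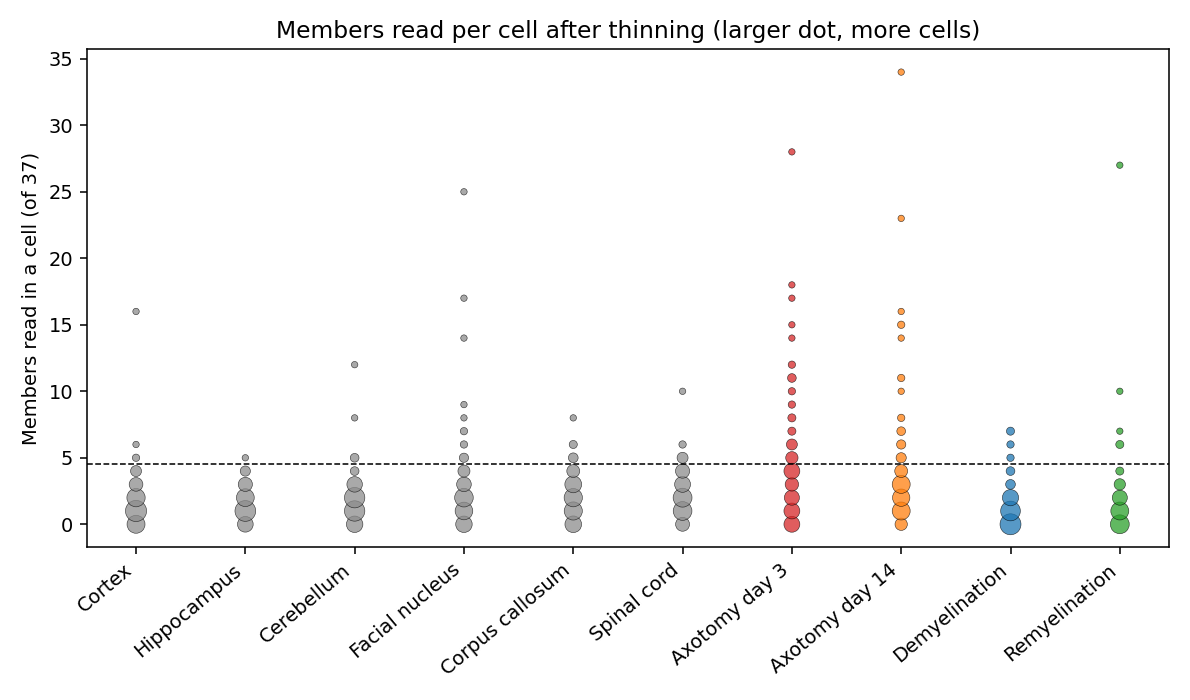
Distribution of the number of members read per cell after thinning, as dots whose size grows with the number of cells; the dashed line lies just under 5 members. Axotomy day 3 has a median of 3 members per cell, and of the 30 cells with at least 10 members 13 are of day 3 and 9 of day 14.

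In cuprizone demyelination members had values in both directions and none was called by edgeR. Bst2 was at 85.5, 52.7, 91.1 and 58.3 CPM and at 15.7, 16.9, 15.2 and 2.86 in untreated corpus callosum, so that every demyelination mouse was above every untreated mouse. Its log2 fold change was 2.48 ± 0.76, with an adjusted p of 0.0632. Other members had few or no reads at this stage. Ifit3 was at 0 in all 4 demyelination mice and at 4.51, 1.55, 0.0904 and 10.1 CPM in corpus callosum, at least 68.1-fold lower against a floor of 3 counts over the group (adjusted p = 0.0612), or 36.0-fold without corpus callosum mouse 4. Isg20, a nuclease that degrades RNA, was also at 0 in all 4, at least 57.1-fold lower (adjusted p = 0.116), or 34.9-fold without the same mouse. Fold bounds here and below count reads and do not allow for the few cells that held them. Of 173 corpus callosum cells, 8 had reads of Ifit3 and 6 of Isg20. Oas3, read 2 times at demyelination, and Rtp4 had adjusted p of 0.145 and 0.292. Oasl2 was at 0, 0.938, 0 and 0.0759 CPM, below all 4 corpus callosum mice.

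By edgeR 0 of 31 members were called at demyelination, beside 725 of 14057 genes (5.16%), and 4 had an unadjusted p under 0.05, beside 20.3% of genes. DESeq2 called 3 members, Bst2 upward and Ifit3 and Isg20 downward, beside 14.3% of genes. The median log2 fold change was -0.43 over the members and -0.33 over all genes, and 12 of 31 were positive. Of the 6 members below the filter, Ifit3b, Irf7, Oas2, Rsad2 and Ifi44 were at 0 in all 4 demyelination mice. In corpus callosum Ifit3b was at 0 too, Irf7 had 1 read, Oas2 31 reads in 2 cells and Rsad2 45 reads in 3 cells. Ifi44 had 148 reads there, 97.3% of them in 1 cell. Ifit1 went the other way, with 914 demyelination reads in 2 cells beside 1 read in corpus callosum. The median that lay close to that of all genes covers the 31 members tested and not the 6 below the filter. Mice did not overlap for 1 member upward, beside 8.88% of genes, and for 2 downward, Ifit3 and Oasl2, beside 14.5%.

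At the remyelination stage Bst2 and Ifi202b rose against untreated corpus callosum. Bst2 was at 242, 63.2, 347 and 31.6 CPM, against 15.7, 16.9, 15.2 and 2.86. Ifi202b was at 210, 13.2, 225 and 47.6 CPM, against 1.04, 6.30, 0 and 0.511. Both genes were high in mice 1 and 3 and lower in mice 2 and 4, and in both the lowest remyelination mouse was still above the highest untreated mouse. The log2 fold change was 3.76 ± 0.80 for Bst2 (adjusted p = 0.0135) and 5.97 ± 1.54 for Ifi202b (adjusted p = 0.0454). Bst2 was read in 42 of 129 cells, with 23.3% of the reads in 1 cell, against 18 of 173 cells in corpus callosum, and Ifi202b in 23 cells, with 30.6% in 1 cell, against 10 cells. The Bst2 call was lost without remyelination mouse 3 (adjusted p = 0.0642). The Ifi202b call was lost without remyelination mouse 1 (0.103) or 3 (0.120) and without corpus callosum mouse 1 (0.108), 3 (0.0778) or 4 (0.117).

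The 2 called members stand beside 438 of 14057 genes (3.12%) called in that comparison, 353 of them higher (2.51%). There were 31 members tested, 6 with an unadjusted p under 0.05 (18.8% of genes), and DESeq2 called 6, beside 11.6% of genes. Their median was 1.08, against -0.31 over all genes, and 20 were positive. Every remyelination mouse was above every untreated mouse for 4 members (Bst2, Ifi202b, Ifi207 and Ifi211), beside 5.52% of genes, and below for Herc6 and Mx2, beside 12.2%. Herc6, the mouse ligase that attaches ISG15 to proteins, was at 2.40, 0, 0.191 and 3.50 CPM against 28.3, 18.1, 45.1 and 37.0, a log2 fold change of -4.38 ± 1.45 that was not called (adjusted p = 0.0959). Mx2 was at 0 in all 4 mice, at least 97.1-fold lower in reads than in corpus callosum (adjusted p = 0.0895), where 7 of 173 cells held its reads. Ifi207 completed the 5 with the smallest p, with a log2 fold change of 5.24 ± 2.00 (adjusted p = 0.145).

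Markers of border macrophages, the related cells of the meninges and vessels, had a higher sum at remyelination than in corpus callosum, but not every marker rose. Their summed level was 142.7 to 387.1 unscaled CPM at remyelination, 22.4 to 177.7 at demyelination and 12.6 to 43.5 in corpus callosum. At remyelination 6 of 8 markers were read (Mrc1, Pf4, F13a1, Ms4a7, Cbr2 and Siglec1), and Cd163 and Lyve1 were at 0. All 8 markers had reads in corpus callosum, Cd163 and Lyve1 included. At demyelination Lyve1 and F13a1 were at 0. Cells were stained for CD206, which such macrophages carry, before the sort; the sources used here give no gate. The part of these macrophage markers in the change of Bst2 and Ifi202b, and that of the lower number of genes per cell in this group, was not tested.

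Between the 2 cuprizone stages, on 1 plate, edgeR called 0 of 31 members, beside 6 of 14057 genes (0.0427%). An unadjusted p under 0.05 was found for 6 members and 14.1% of genes. DESeq2 called 4, Ifi202b, Ifit3 and Isg20 upward and Herc6 downward, beside 4.37% of genes. Mice did not overlap for Ifi211 and Ifit3 upward (1.47% of genes) and for Herc6 downward (2.76%). Ifit3 was at 14.4, 2.49, 47.3 and 0.300 CPM at remyelination, at least 297-fold higher than the 0 of demyelination as a group (adjusted p = 0.290). Of its 622 reads 79.9% lay in 1 cell of mouse 3, and the bound without that mouse was 84.7-fold. Isg20 had all 103 remyelination reads in 1 of 129 cells, of mouse 3, and its bound on reads was 49.2-fold higher. Mx2 had all 57 demyelination reads in 1 of 161 cells, of mouse 4, and its bound on reads was 13.3-fold lower at remyelination. With reads in 1 cell, neither bound shows a difference between the stages. Herc6 (log2 fold change -4.31 ± 1.45) and Ifi202b (3.58 ± 1.37) also had adjusted p of 0.290. The members' median was 1.61, against 0.04 over all genes, and 24 of 31 were positive. Both stages were compared with the same 4 corpus callosum mice.

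The difference between the 2 injuries was tested directly, as the demyelination effect less the day 3 effect. edgeR called 0 of 37 members, beside 64 of 22810 genes (0.281%). There were 11 members with an unadjusted p under 0.05, beside 21.7% of genes. DESeq2 called 9, all lower, beside 10.7% of genes. Of the 2396 genes it called, 2161 were lower, so that direction was not particular to the members. Among the 9, Ifi44, Irf7, Isg20 and Rsad2 had 0 reads at demyelination. The median was -1.80 over the members and -1.22 over all genes, with 8 of 37 positive (21.6%) against 32.5% of all genes. The smallest p belonged to Ifit3 (adjusted p = 0.0801), Rtp4 (-6.75, adjusted p = 0.0833), Oasl2 (-6.94), Mx1 (-7.24) and Isg20 (adjusted p = 0.119). For Mx1 this sets the day 3 values given above beside 0, 0, 3.06 and 0 CPM at demyelination and 3.90, 8.95, 0 and 12.4 in corpus callosum.

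Among the 6 untreated regions no member was called. A test for any difference called 0 of 35 members by edgeR and 1, Ifitm3, by DESeq2, beside 23 of 22907 genes by edgeR (0.1%) and 0.912% by DESeq2, and 5 members had an unadjusted p under 0.05, beside 10.3% of genes. Ifitm3 had the smallest p (0.000314, adjusted p = 0.165). It was read once in cortex and 3 times in hippocampus, over 4 mice each, and was at 35.9, 7.86, 1.58 and 0.203 CPM in cerebellum, 1.04, 0, 8.22 and 0.409 in corpus callosum and 2.14, 5.63, 54.3 and 0 in spinal cord. Facial nucleus, given above, had the highest mean, 34.0 ± 41.9 CPM, and its mice overlapped those of cerebellum and spinal cord. Irf7 (adjusted p = 0.293) was at 0 in all cortex mice, had 3 reads in hippocampus, 1 in corpus callosum and 9 in spinal cord, and reached 21.7 and 40.3 CPM in 2 cerebellum mice. Mx2 (adjusted p = 0.405), Ifi44 and Ifi27l2a followed. Trim30a and Irf9, the members with the most counts, were read in every mouse of every region.

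Each pair of regions on a shared plate was also compared. Cortex against hippocampus gave 0 of 35 members called, beside 0.0% of genes, 1 with an unadjusted p under 0.05, beside 10.3%, and 2 by DESeq2, beside 3.43%. These were Cmpk2 and Ifi44, both at 0 in hippocampus and at least 11.3-fold and 10.3-fold higher in cortex. Cmpk2 had 44 cortex reads in 2 cells, and Ifi44 40 reads of which 90.0% lay in 1 cell of mouse 4; without that mouse the bounds were 6.25-fold and 1.39-fold. No member separated the mice of these 2 regions (1.2% of genes upward, 1.13% downward). Sp100, Ifi204 and Mx2 completed that list, and the 5 had adjusted p of 0.478 to 0.517. Cerebellum against facial nucleus gave 0 of 35, beside 0.00437% of genes, 4 with an unadjusted p under 0.05, beside 11.3%, and 2 by DESeq2, Mx2 and Ifi44, beside 3.52%. Mice did not overlap for the RNA sensor Ifih1 upward (1.05% of genes) and for Rsad2 downward (1.77%), whose log2 fold change was positive without the cell filter (1.05). Mx2 was at 202, 42.2, 0.948 and 0.945 CPM in cerebellum and 0.390, 0.0920, 3.95 and 0.669 in facial nucleus, high in 2 cerebellum mice (log2 fold change 5.56 ± 1.97, adjusted p = 0.422). Ifi44 was at 0 in cerebellum, at least 146-fold lower, with 55.1% of its 361 facial nucleus reads in 1 cell of mouse 1 and a bound of 43.0-fold without that mouse. Rsad2, Ifi27l2a and Oasl1 followed. Spinal cord against corpus callosum gave 0 of 35, beside 0.0% of genes, 3 with an unadjusted p under 0.05, beside 6.57%, and 1 by DESeq2, beside 1.66%. That gene, Ifit2, was at 0 in spinal cord and at least 25.4-fold lower. In corpus callosum 87.1% of its 70 reads lay in 1 cell of mouse 3, the bound without that mouse was 4.45-fold, and without the cell filter the log2 fold change was positive (1.04). Mice did not overlap for Bst2 upward (1.19% of genes) and for Ddx58 downward (1.58%). Irf9, the DNA-binding subunit of the STAT complex, was at 26.7, 159, 134 and 232 CPM in spinal cord and 3.64, 21.7, 54.6 and 64.3 in corpus callosum, overlapping in the lowest spinal cord mouse (1.96 ± 0.71, adjusted p = 0.735). Ifit1, Oas2 and Ddx58 followed.

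The genes upstream and beside the members were read from lists of the same pathway. Of 21 interferon genes Ifnb1, interferon beta, was the 1 that passed the filter on low counts in the cuprizone groups, and Ifng had 0 reads in all groups. Ifnb1 was at 3.12, 3.76, 5.60 and 6.75 CPM in corpus callosum, the 1 region where all 4 mice had reads and which held 198 of its 338 reads, and at 0 in every mouse of the injured groups. It fell at demyelination, at least 81.3-fold (adjusted p = 0.0478), a call that was lost when any 1 of the 8 mice of these groups was left out (adjusted p up to 0.126). Of 8 receptor and kinase genes tested in the cuprizone groups, Ifngr1, a chain of the interferon gamma receptor, fell at demyelination by 1.48 on the log2 scale (± 0.28, adjusted p = 0.00417) and at remyelination by 1.07 (adjusted p = 0.0417), the latter lost when any of these 8 mice but remyelination mouse 2 was left out (adjusted p up to 0.130).

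Ifnar1 and Ifnar2, the chains of the type I interferon receptor, were not called in any injured group. At day 3 their log2 fold changes were -0.08 and -0.30, at demyelination -0.68 and -0.23, and at remyelination 0.43 and -0.21. Tmem173, which encodes STING, the adaptor of cytosolic DNA sensing, was at 368.5, 222, 479 and 191 CPM at demyelination and at 413, 463, 237 and 276 at remyelination, below the 1285, 1227, 991 and 1495 of corpus callosum in all mice. It fell by 2.02 (± 0.33, adjusted p = 0.00135) and by 1.85 (± 0.33, adjusted p = 0.00317) on the log2 scale, the 1 call among 17 sensing genes in each comparison.

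Of 45 other interferon-induced genes tested there, Lgals3bp, a secreted galectin-binding glycoprotein, rose at both stages, from 41.5, 86.9, 165 and 115 CPM in corpus callosum to 471, 837, 776 and 347 at demyelination (log2 fold change 2.55 ± 0.52, adjusted p = 0.00852) and 1154, 198, 493 and 423 at remyelination (2.49 ± 0.52, adjusted p = 0.0116). Psmb8, an immunoproteasome subunit, rose at remyelination by 1.62 ± 0.34 (adjusted p = 0.0128), a call lost without corpus callosum mouse 2 (0.0611). Among 8 transcription factors Irf5 fell by 1.18 and Stat3 rose by 1.34 at demyelination, both at an adjusted p of 0.0481, and both calls were lost when any 1 mouse was left out. Among the 6 untreated regions 1 gene of these lists was called, the galectin Lgals9 (adjusted p = 0.0327), and that call was lost when any 1 replicate number was left out. None of the genes in these lists was called after axotomy, where 9 receptor and kinase genes, 17 sensing genes and 61 other interferon-induced genes were tested.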

How the data were processed

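Single microglia of 10 groups of 4 labelled replicates, called mice here, were sequenced by Smart-seq2 from sorted wells. The authors deposited read counts, whole numbers for each gene in each well, without normalization. STAR 2.5.2b served for alignment to GRCm38 and featureCounts 1.5.1 for counting, per the submitters' processing notes. Neither the annotation release nor a strand setting is given in the sources used here. The method keeps no strand, so a gene and its antisense or overlapping partner cannot be separated, and reads are not independent molecules.

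A well was kept with at least 20000 gene counts, 500 detected genes, under 25% mitochondrial and under 50% spike-in counts. The mouse is the replicate, so each mouse's kept cells were added up within a group. Groups of the axotomy system, of the cuprizone system and of the untreated regions were fitted apart with edgeR 4.0.16 (R 4.3.3): TMM scaling, filterByExpr at its minimum count of 10 with 15 as the minimum total, and the robust quasi-likelihood test, adjusted by Benjamini-Hochberg over all genes tested at 0.05. A gene is called where its adjusted p is below that value. The difference between injuries was fitted over their 6 groups. The code was tested on simulated data. The labels call the mice replicates but do not say how far their handling was separate, so p-values measure the spread between these sums. No 2 sums of a group agreed within sampling noise (lowest chi-square 67.1 per degree of freedom over 60 pairs).

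Named members were every called one, filled up to 5 per comparison by the smallest unadjusted p, and the 10 with the highest mean level; of the pathway lists, called genes. Stat2 at day 14, Oasl2 at demyelination and genes with reads in few mice were also named after their values were seen. The members and lists were chosen with earlier results of these data known. Whether replicate numbers pair mice was checked by correlating deviations from group means over 4170 genes: same-numbered sums gave a mean of 0.034 over the regions, -0.00335 over the axotomy groups and 0.0047 over the cuprizone groups, with none over 0.1, so no block was used. For shares of cells, each cell was thinned to 20000 counts without replacement. Alternatives were DESeq2 1.42.0, upper-quartile scaling, no filter on low counts, no cell filter, equal weight per cell, all groups in 1 fit, the replicate block and leaving out each mouse. A share without cells that read at least 3 division markers, fold bounds without each mouse, and the share of all genes called under 2 of the alternatives were added after seeing the data. Of the pathway lists, 1 gene is not reported here.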

Additional observations from a re-analysis of the deposited data

Results flagged for a closer look

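In 27 of 120 groups of 4 mice examined (the 10 most abundant members, the share of cells with at least 5 members and the mean number of members per cell, each in 10 groups), 1 mouse stood apart from the other 3 by more than Dixon's critical value for 4 samples. Chance gives this in about 1 in 20 groups of continuous values. Where 3 of the 4 mice are at 0, as in some of the groups below, the criterion is always met, so the 27 are not to be read against that rate. Ifitm3 was set by its highest mouse in cortex (0.0747 CPM), hippocampus (0.250), facial nucleus (96.5), corpus callosum (8.22), spinal cord (54.3) and remyelination (220). Ifi27l2a was set by its highest mouse in cortex (21.4 CPM), hippocampus (6.11), cerebellum (9.32), facial nucleus (293) and spinal cord (45.4).

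For Ifi202b the highest mouse stood apart in hippocampus (9.80 CPM), cerebellum (33.0), corpus callosum (6.30) and day 14 after axotomy (202). For Parp14, an ADP-ribosyltransferase, this held in hippocampus (84.1 CPM), cerebellum (108), demyelination (165) and remyelination (266). Ddx58, the RNA sensor RIG-I, was set by 1 mouse at demyelination (46.5 CPM) and at remyelination (91.5). Bst2 had a high mouse in cortex (33.1 CPM) and at day 3 (199) and a low mouse in corpus callosum (2.86). Trim30a had a high mouse in facial nucleus (191 CPM), Ifi35 in hippocampus (181), and the share of cells with at least 5 members in hippocampus came from 1 mouse (2.56%).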

How the results depend on the processing

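The numbers of members called depended on the tool. DESeq2 called 3 members at day 3 against facial nucleus, 3 at demyelination and 6 at remyelination against corpus callosum, 4 between the cuprizone stages, 1 among the 6 regions, 2 for cortex against hippocampus, 2 for cerebellum against facial nucleus, 1 for spinal cord against corpus callosum and 9 for the difference between injuries. edgeR without a filter on low counts called 1 at day 3 (Mx1, beside 0.237% of all genes), 1 at demyelination (Ifit1, beside 1.62%) and 1 among the regions (Ifitm3, beside 0.142%); upper-quartile scaling called 1 at remyelination (Bst2, beside 2.58%). The Ifit1 call sets 914 demyelination reads in 2 cells beside 1 read in corpus callosum. Leaving out 1 mouse at a time gave 0 to 2 at remyelination against corpus callosum and 0 elsewhere. Without a cell filter 2 values that were not called changed sign, Rsad2 in cerebellum against facial nucleus (1.05) and Ifit2 in spinal cord against corpus callosum (1.04). The cause was not tested. With the replicate block, edgeR called 2 members at remyelination against corpus callosum, Bst2 (adjusted p = 0.0208) and Ifi202b (0.0466), and 0 in every other comparison. Bst2 was called in 14 of 15 alternatives and Ifi202b in 8 of 15, both higher in all 15. Upper-quartile scaling moved the median of all genes at demyelination from -0.33 to -0.53 and the members' median from -0.43 to -0.64. Most members have few reads per mouse, which limits what any single comparison can show.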
